A study of Mus musculus with 6 samples.

Results

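The clustered protocadherin genes were taken as all protein-coding genes on mouse chromosome 18 whose symbol begins with Pcdha, Pcdhb or Pcdhg in the GENCODE annotation of GRCm38. This gave 56 of the 21911 protein-coding gene symbols, with 13 Pcdha, 22 Pcdhb and 21 Pcdhg genes. All 56 lie on the plus strand. The Pcdha cluster spans 36930184 to 37187661 (257478 bp), the Pcdhb cluster 37264938 to 37524479 (259542 bp) and the Pcdhg cluster 37661793 to 37841873 (180081 bp). The annotation gives the symbol Pcdha11 to 2 gene IDs, which were joined, and types Pcdhgb8 as a polymorphic pseudogene, so it was not a member.

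Clustered protocadherins are transmembrane adhesion proteins of the cadherin superfamily, best known from neurons, where each cell uses its own combination of them and like combinations recognise each other on neighbouring cell surfaces. In the Pcdha and Pcdhg clusters each variable exon, which encodes the extracellular part, has its own promoter and is spliced to constant exons shared by the whole cluster, whereas Pcdhb genes carry their complete coding sequence in an own exon. The last genes of the Pcdha and Pcdhg clusters (Pcdhac1, Pcdhac2, Pcdhgc3, Pcdhgc4 and Pcdhgc5, called C-type) differ in sequence and are used more uniformly across neurons than the other, alternate isoforms. Trimethylation of histone H3 at lysine 4 (H3K4me3) marks promoters in use or ready for use, and trimethylation at lysine 27 (H3K27me3) is laid down by Polycomb complexes at silenced developmental genes.

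Colonic epithelial organoids of C57BL/6 mice, which are wild-type cultures that grow as small epithelial spheres and buds, were grown without added cytokine (wt) or with the inflammatory cytokine TNFα at 40 ng/ml for 3 weeks (wt+TNFα). Each mark was measured by ChIP-seq in 1 library per condition, so no difference between wt and wt+TNFα has a replicate check, and no test, error or p-value is given. The values are peaks called against the input of the same condition, without read counts, so the depth behind a peak is not known. In these bulk samples, a mark on fewer cells or alleles and a weaker mark on all of them cannot be told apart. The wt H3K27me3 list held 30347 autosomal peaks on 4.12% of the autosomal bases and the wt+TNFα list 48962 on 9.26%, and the H3K4me3 lists held 11233 and 11565 on 0.724% and 0.792%. All other H3K27me3 peaks lay on chromosome X, 247 in wt and 11578 in wt+TNFα. The deposited names of the wt H3K27me3 list and both H3K4me3 lists mention a spike-in and that of the wt+TNFα H3K27me3 list does not, so the 2 H3K27me3 lists may have been processed differently, and the part of this in their differences was not tested. All 10 colon epithelium markers carried an H3K4me3 peak in wt and 9 in wt+TNFα, the exception being Krt20. None of the 6 immune, 4 endothelial and 5 fibroblast and muscle markers carried an H3K4me3 peak in either condition, and of the 10 neuron and glia markers 1 did in both, Ret.

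H3K27me3 peaks lay at a few genes of the Pcdha cluster and over part of the Pcdhg cluster, H3K4me3 peaks in the Pcdhg cluster alone, and neither in the Pcdhb cluster. Promoters reached 1000 bp upstream and downstream of all annotated transcript starts, and 1 bp inside a peak was enough for a call. In wt, H3K27me3 was called at 8 of the 56 promoters (14.3%), against 21.7% of all protein-coding genes. In wt+TNFα, 11 of 56 (19.6%) had such a peak, against 29.5% of all. Stricter settings moved these counts. With H3K27me3 peaks at a −log10 q of at least 2 they were 1 in wt and 2 in wt+TNFα, against 13.5% and 20.7% of all protein-coding genes. With the peaks above the median −log10 q of each list, which was 0.779 in wt and 1.34 in wt+TNFα, they were 8 and 4, against 19.1% and 26%. H3K4me3 was called at the same 3 members in both conditions (5.36%), against 50.5% of all protein-coding genes in wt and 51.2% in wt+TNFα. Of the 454 other protein-coding genes of chromosome 18, 61.5% had an H3K4me3 peak in wt and 62.3% in wt+TNFα. Altogether 40 members had no promoter peak in any of the 4 lists, 22 of them Pcdhb, 11 Pcdha and 7 Pcdhg.

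**Figure D1:**
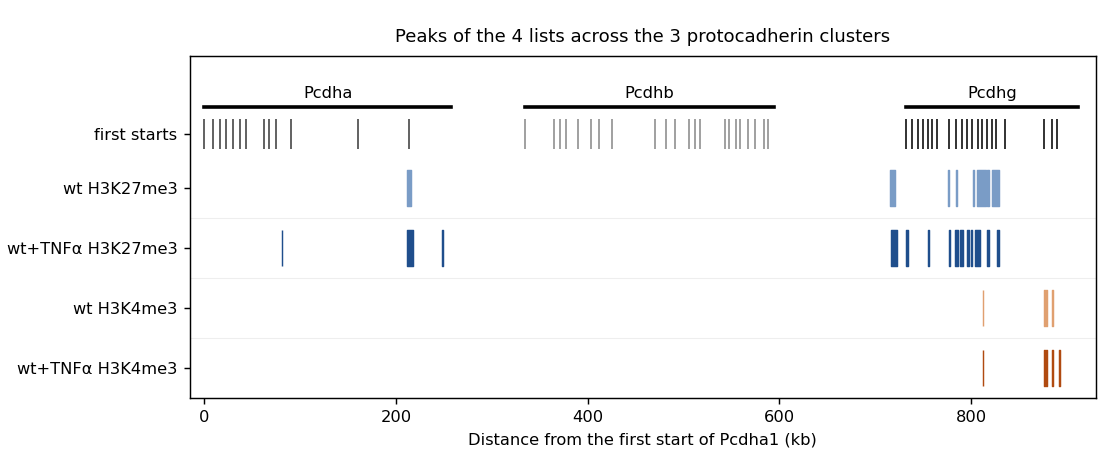
Peaks of the 4 lists along the 3 clusters, with the distance from the first start of Pcdha1 in kb on the x axis and a row per list. Ticks mark the first transcript start of each of the 56 genes and black bars the 3 clusters. No peak of any list lies over the Pcdhb cluster, and H3K4me3 peaks lie over the Pcdhg cluster alone.

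The 22 Pcdhb genes, from Pcdhb1 to Pcdhb22, had no peak of either mark at a promoter, in an exon or between the genes in wt or in wt+TNFα. They lie in a stretch of 467295 bp without a peak in any list, from 37178752 to 37646046. The nearest H3K27me3 peak was 118726 bp from the start of Pcdhb1 in wt and 86187 bp in wt+TNFα, and for Pcdhb22 these distances were 127688 bp and 128111 bp. The nearest H3K4me3 peak to a Pcdhb start was 223762 bp away in wt and 223803 bp in wt+TNFα. Empty stretches of this length were common, since the autosomes held 675 stretches at least as long without a peak, together 34.9% of their length. Taf7, a subunit of the general transcription factor TFIID that lies in the same stretch, had no peak either, nor had the mitochondrial carrier gene Slc25a2 beside it. Of 229 autosomal genes of basic cell machinery, 8 (3.49%) also lacked an H3K4me3 peak in both conditions, Psma7 and Rps9 among them, and on chromosome 1 no list had a peak before 9.24 Mb, while the first peak of the other autosomes lay between 3.11 and 4.6 Mb. A missing peak therefore does not show a missing mark, here or at the unmarked members.

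In the Pcdha cluster, the C-type gene Pcdhac2 was the only member with a promoter peak in both conditions. H3K27me3 covered 100% of its promoter in wt and in wt+TNFα. The wt peak ran from 37141775 to 37146212 (4438 bp) with a fold enrichment of 2.96 over the local background, and 93.6% of the peaks of that list had a lower one. In wt+TNFα it ran from 37141715 to 37148014 (6300 bp) with a fold enrichment of 2.89, above 96.6% of its list. The peaks covered 89.5% of the Pcdhac2 variable exon in wt and 100% in wt+TNFα. The −log10 q was 4.42 and 7.73, so that Pcdhac2 was the single member promoter still called in wt when H3K27me3 peaks with a −log10 q of at least 2 were kept.

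The other C-type gene of this cluster, Pcdhac1, had no peak of any list at its promoter or variable exon, and the nearest H3K27me3 peak lay 51762 bp away in wt and 51702 bp in wt+TNFα. The alternate isoforms Pcdha1 to Pcdha9 and Pcdha12 had no promoter peak either. For Pcdha1, the first gene of the cluster, the nearest H3K27me3 peak was 118913 bp away in wt and 80568 bp in wt+TNFα. Pcdha11 had an H3K27me3 peak in wt+TNFα alone, of 391 bp and a fold enrichment of 1.80, which covered 7.06% of its promoters and came within 21 bp of a start. For the gene ID that holds the peak alone the share was 11%, and in either count it was the lowest of a called member promoter in that list. The call was lost with 1 start per symbol, which falls on the other ID. A further wt+TNFα peak of 361 bp (fold enrichment 1.74) lay among the constant exons. No H3K4me3 peak was called in the Pcdha cluster, and the nearest to a Pcdha start was 127556 bp away in wt and 127503 bp in wt+TNFα.

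**Figure D2:**
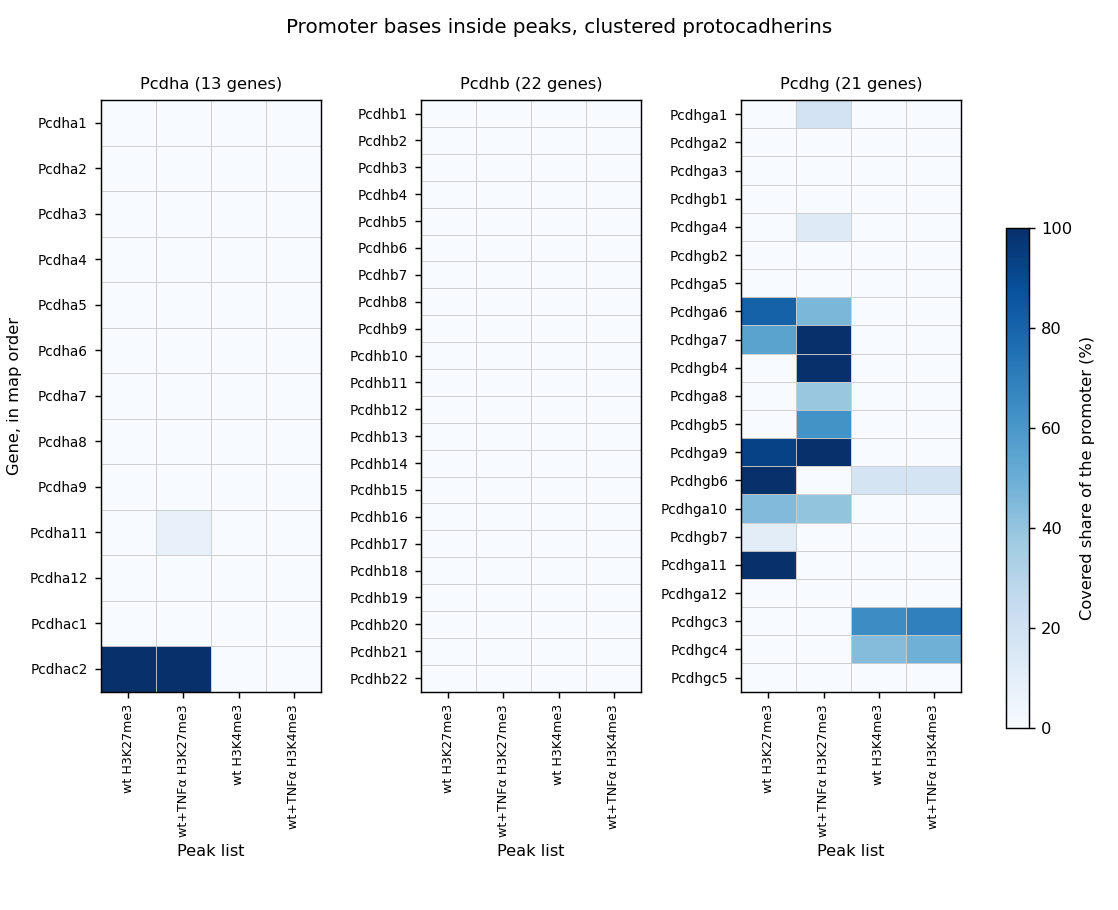
Share of promoter bases inside peaks, in percent by colour, for the 56 genes in map order (rows) in each of the 4 lists (columns), with a panel per cluster. All Pcdhb rows are at 0, Pcdhac2 is at 100% for H3K27me3 in both conditions, and in the Pcdhg panel the H3K27me3 columns differ between wt and wt+TNFα while the H3K4me3 columns mark Pcdhgb6, Pcdhgc3 and Pcdhgc4 in both.

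In the Pcdhg cluster, H3K27me3 peaks lay over some of the alternate isoforms and H3K4me3 peaks mostly over C-type genes. At a −log10 q of at least 2, H3K27me3 peaks covered 0% of the cluster in wt and 2.87% in wt+TNFα. The shares that follow are for all peaks. From Pcdhga1 to the end of the Pcdhga12 variable exon, H3K27me3 peaks covered 21.4% of the bases in wt and 20.6% in wt+TNFα. From Pcdhgc3 to the end of the Pcdhgc5 variable exon they covered 0% in both. H3K4me3 peaks covered 0.327% of the first stretch in both conditions, and 15.9% of the second in wt and 18.6% in wt+TNFα.

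The wt H3K27me3 peaks touched the promoters of 7 Pcdhg genes, all in the run from Pcdhga6 to Pcdhga11. A peak of 9459 bp (37736117 to 37745575, fold enrichment 2.09) covered the starts of Pcdhga9 and Pcdhgb6, with 92.6% of the Pcdhga9 promoter and 100% of the Pcdhgb6 promoter. Another of 7421 bp (37752391 to 37759811, fold enrichment 2.19) covered 100% of the Pcdhga11 promoter and, with 10.5%, the edge of the Pcdhgb7 promoter, the lowest called share in wt. The remaining wt peaks covered 80.5% of the promoter at Pcdhga6, 54.9% at Pcdhga7 and 44.5% at Pcdhga10. Between these genes, the Pcdhgb4, Pcdhga8 and Pcdhgb5 promoters had no wt peak, and a peak of 564 bp inside the Pcdhgb5 variable exon lay 1550 bp from its nearest start.

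In wt+TNFα, H3K27me3 was called at 9 Pcdhg promoters, and 4 of these were called in wt as well. The covered share at these 4 was 45.9% at Pcdhga6, 100% at Pcdhga7, 100% at Pcdhga9 and 40.1% at Pcdhga10. It was thus larger than in wt at Pcdhga7 and Pcdhga9 and smaller at Pcdhga6 and Pcdhga10. The fold enrichments of these peaks ran from 2.09 at Pcdhga9 to 2.48 at Pcdhga7 in the wt list, whose median was 2.1, and from 1.75 at Pcdhga6 to 2.18 at Pcdhga9 in the wt+TNFα list, whose median was 1.9.

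**Figure D3:**
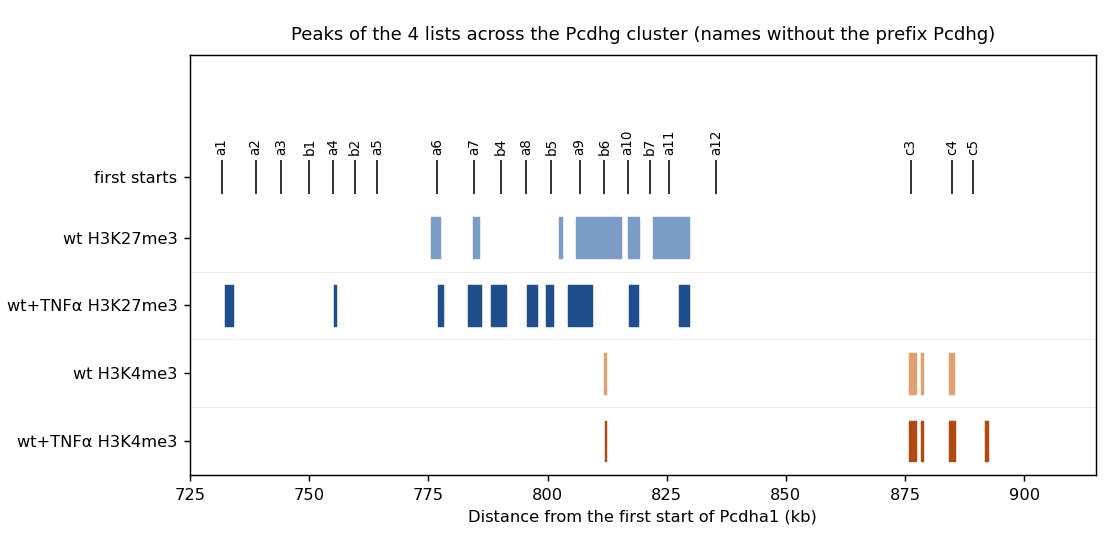
Peaks of the 4 lists along the Pcdhg cluster, with the distance from the first start of Pcdha1 in kb on the x axis. Ticks with names mark first starts. The long wt H3K27me3 peaks over Pcdhga9 to Pcdhgb6 and Pcdhgb7 to Pcdhga11 stand against shorter wt+TNFα peaks over Pcdhga9 and downstream of the Pcdhga11 start, and H3K4me3 peaks stand at Pcdhgb6, Pcdhgc3 and Pcdhgc4 in both conditions.

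H3K27me3 was called in wt+TNFα alone at 6 members (10.7%), against 9.01% of all protein-coding genes, 6.48% of the autosomal ones and 6.17% of the others on chromosome 18. It was called in wt alone at 3 members (5.36%), against 1.21%, 1.28% and 1.32%. These counts changed with the choice of peaks. At a −log10 q of at least 2 they were 1 in wt+TNFα alone and 0 in wt alone, against 7.85% and 0.63% of all protein-coding genes. Above the median −log10 q of each list they were 0 and 4, against 8.09% and 1.22%, and this threshold was the higher one in wt+TNFα. The 6 members called in wt+TNFα alone were Pcdha11 and the Pcdhg genes Pcdhga1, Pcdhga4, Pcdhgb4, Pcdhga8 and Pcdhgb5. In Pcdhg the covered share of the promoter in wt+TNFα was 18.3% at Pcdhga1, 12.2% at Pcdhga4, 100% at Pcdhgb4, 38.7% at Pcdhga8 and 62.1% at Pcdhgb5. Their fold enrichments lay between 1.83 at Pcdhgb5 and 1.90 at Pcdhga1 and Pcdhga4, below the median of the list. At Pcdhga1, Pcdhga4 and Pcdhga8 the peak began downstream of the start, by 635 bp, 168 bp and 227 bp, whereas at Pcdhgb4 and Pcdhgb5 it covered a start.

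The 3 members with H3K27me3 in wt alone were Pcdhgb6, Pcdhgb7 and Pcdhga11, which neighbour each other apart from Pcdhga10. Pcdhgb6 and Pcdhga11 went from 100% of the promoter to 0%, and Pcdhgb7 from 10.5% to 0%. In wt+TNFα the nearest H3K27me3 peak was 2541 bp from the start of Pcdhgb6, 2428 bp from Pcdhgb7 and 1974 bp from Pcdhga11, where it still covered 25.1% of the variable exon. The wt peak over Pcdhgb7 and Pcdhga11 had 28.4% of its bases in the wt+TNFα list, and that over Pcdhga9 and Pcdhgb6 had 36.3%. The −log10 q of the first was 1.04 and that of the second 0.842, so that none of the 3 genes was called in wt at a −log10 q of at least 2, and of the 6 genes called in wt+TNFα alone none was either.

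Counted by bases instead of calls, 9 member promoters had at least 1 bp of H3K27me3 called in wt+TNFα outside the wt peaks, against 20.6% of all protein-coding genes, and 5 had at least 1 bp called in wt outside the wt+TNFα peaks, against 5.22%. Over all members 6761 bp were called in wt+TNFα alone and 5383 bp in wt alone. The covered share was larger in wt+TNFα at 8 members (14.3%), against 20% of all protein-coding genes, and smaller at 5 (8.93%), against 3.76%. Pcdhgb4 held the longest piece called in wt+TNFα alone, 2015 bp, and Pcdhgb6 and Pcdhga11 the longest in wt alone, 2001 bp each. Pcdhga6 had both, with 391 bp in wt+TNFα alone and 1083 bp in wt alone.

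H3K4me3 was called at the promoters of Pcdhgb6, Pcdhgc3 and Pcdhgc4 in both conditions. It was called in wt+TNFα alone at 0 members, against 1.49% of all protein-coding genes, and in wt alone at 0, against 0.744%. The peaks at all 3 genes lay below the median −log10 q of their list in wt and in wt+TNFα. Pcdhgc3 had the strongest peak of the clusters. In wt it covered 64.2% of the promoter bases and was enriched 23.7-fold, and in wt+TNFα it covered 69% and was enriched 24.7-fold. Both values are close to the medians of their lists, 24.6 and 27, and 47.6% of the wt peaks and 44.4% of the wt+TNFα peaks had a lower one. An antisense transcript, BC037039, starts within 1000 bp of this peak, and ChIP-seq does not tell the strands apart. A second H3K4me3 peak inside the Pcdhgc3 variable exon, of 389 bp in wt and 391 bp in wt+TNFα, had fold enrichments of 5.26 and 6.29.

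At Pcdhgc4, the wt H3K4me3 peak covered 43.5% of the promoter bases (fold enrichment 7.24) and the wt+TNFα peak 49% (fold enrichment 7.36). Pcdhgc5, the last gene of the cluster, had no promoter peak in any list. In wt+TNFα alone, an H3K4me3 peak from 37821966 to 37822528 (563 bp, fold enrichment 5.38) lay at the end of its variable exon, 2312 bp from the nearest start, and covered 6.45% of that exon. Neither Pcdhgc3, Pcdhgc4 nor Pcdhgc5 had an H3K27me3 peak, and the nearest one was at least 46553 bp away in wt and 46524 bp in wt+TNFα. The C-type genes thus fell apart in these lists, with H3K27me3 at Pcdhac2, H3K4me3 at Pcdhgc3 and Pcdhgc4, and no promoter peak at Pcdhac1 and Pcdhgc5.

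Pcdhgb6 was the single member with both marks at the promoter in wt, against 5.18% of all protein-coding genes, and no member had both in wt+TNFα, against 7.64%. In wt, 0 members had both marks with H3K27me3 peaks at a −log10 q of at least 2, and 0 when the lists of both marks were limited to peaks above their median −log10 q. The share of all protein-coding genes with both marks was not counted at these 2 settings, so these counts have no background beside them. The H3K4me3 peak of Pcdhgb6 was 349 bp long in each condition and covered 17.4% of the promoter both times, the lowest called share for this mark. The fold enrichment was 8.01 without TNFα and 4.71 with it. The peak began 27 bp from the start in wt and 68 bp in wt+TNFα, so that 41 bp were called in each condition alone. Of the peaks in the same list, 10.1% had a lower fold enrichment than the wt peak and 0.816% a lower one than the wt+TNFα peak. At least 1 bp of H3K4me3 was called in wt+TNFα outside the wt peaks at 3 members, against 40.9% of all protein-coding genes, and in wt outside the wt+TNFα peaks at 2, against 21.1%. These shifts of peak edges came to 304 bp and 75 bp over all members.

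Across whole clusters, H3K27me3 peaks covered 1.72% of the Pcdha cluster in wt and 2.74% in wt+TNFα, 0% of the Pcdhb cluster in both, and 12.7% and 12.2% of the Pcdhg cluster. On chromosome 18 as a whole the share was 2.92% in wt and 6.14% in wt+TNFα, and on the autosomes the covered length was 2.25 times as large in wt+TNFα. In the Pcdhg cluster this ratio was 0.964, and 40.3% of the wt bases and 41.8% of the wt+TNFα bases were shared. The ratio changed with the choice of peaks, since 0% of the Pcdhg cluster was covered in wt and 2.87% in wt+TNFα at a −log10 q of at least 2, against 12.7% and 6.66% above the median −log10 q of each list. On chromosome 18, 80.6% of the wt bases and 38.4% of the wt+TNFα bases were shared, so that the share in the Pcdhg cluster was the lower one for wt and the slightly higher one for wt+TNFα. Between the Pcdhb and Pcdhg clusters, a further H3K27me3 peak was called in both conditions. Its wt call ran from 37646047 to 37650587 and its wt+TNFα call from 37646470 to 37652945. H3K4me3 covered 1.73% of the Pcdhg cluster in wt and 2.24% in wt+TNFα, and 0.569% and 0.615% of chromosome 18.

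**Figure D4:**
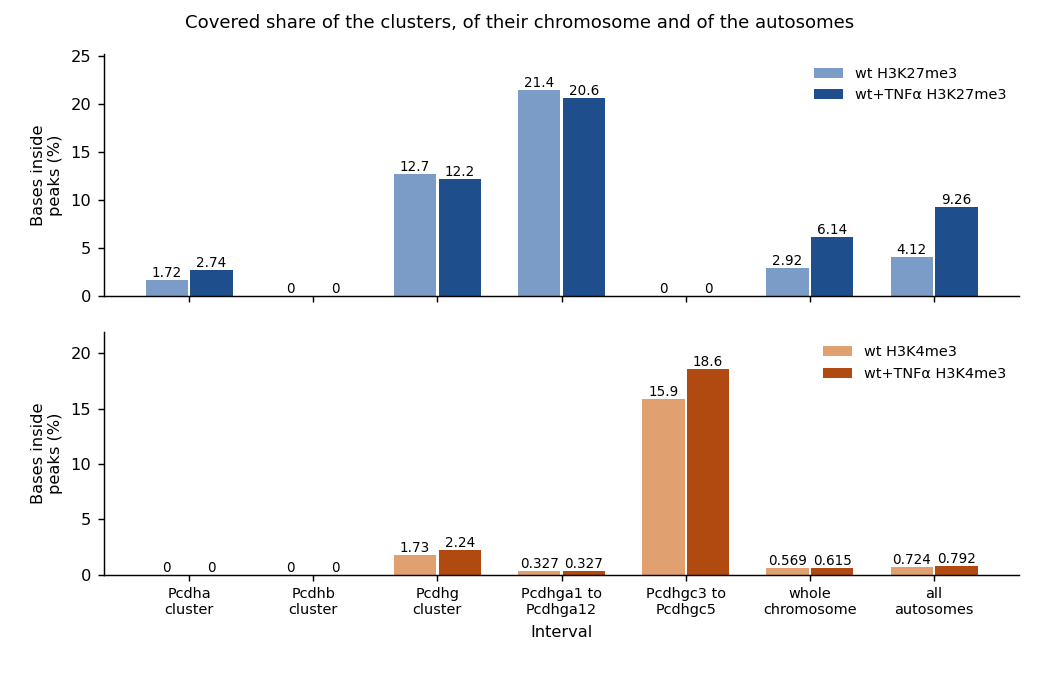
Bars give the percent of bases inside peaks, H3K27me3 above and H3K4me3 below, for wt (light) and wt+TNFα (dark), by interval on the x axis. H3K27me3 stands at 12.7% and 12.2% in the Pcdhg cluster while it goes from 4.12% to 9.26% on all autosomes. Among the intervals shown, H3K4me3 is at its largest, 15.9% and 18.6%, from Pcdhgc3 to Pcdhgc5.

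The clusters differed in the base composition around their first starts, which the choice of members did not use. The ratio of observed to expected CpG within 500 bp on each side had a median of 0.683 in Pcdha, 0.378 in Pcdhb and 0.594 in Pcdhg, against 0.552 over all protein-coding genes. All 22 Pcdhb genes, from 0.158 to 0.519, lay below that median. Pcdhgc3 was at 0.797 and Pcdhac2 at 0.681. Pcdhgc5 was at 0.233 and Pcdhga12 at 0.318, and neither had a promoter peak. The 14 members with H3K27me3 in at least 1 condition had a median of 0.661 and the 40 without any promoter peak 0.452. Without the Pcdhb genes, the remaining 18 unmarked members had the same median as the marked ones, 0.661. Pcdha1 to Pcdha9, for example, had no peak and lay between 0.643 and 0.749. The letters CGCT, which form the core of an element known from these promoters, were present on either strand from 300 bp upstream to 100 bp downstream of the first start in 54 members (96.4%), against 72.6% of all protein-coding genes. The letters were absent at Pcdhb22 and Pcdhga12. So short a match does not show that the element itself is present, and the element was not searched for.

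**Figure D5:**
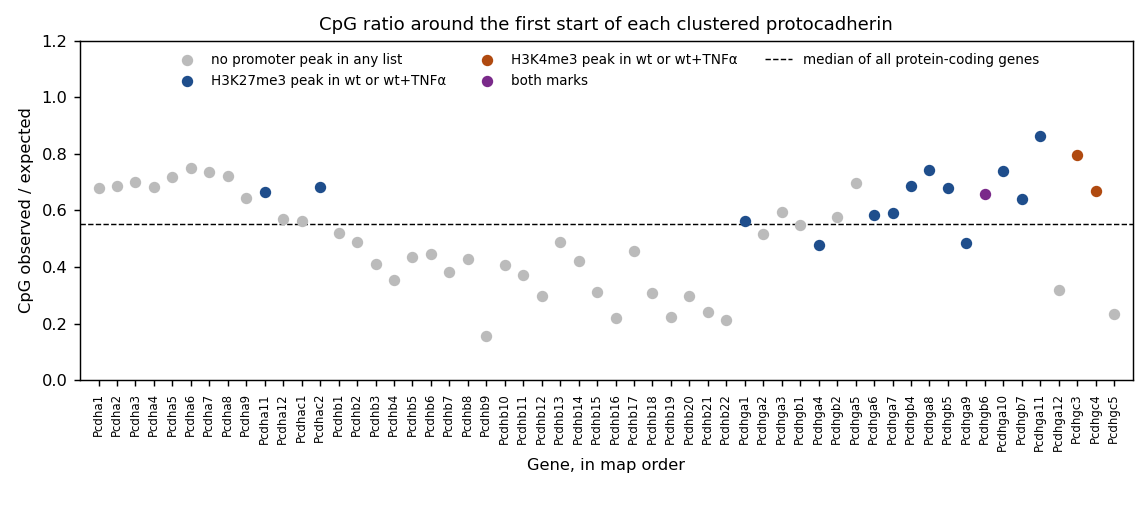
Observed over expected CpG within 500 bp on each side of the first start (y axis) for the 56 genes in map order (x axis), coloured by the promoter peaks of wt and wt+TNFα. The dashed line is the median of all protein-coding genes, 0.552, and all Pcdhb genes lie below it.

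The 12 non-clustered protocadherins are separate genes of the same superfamily. H3K27me3 was called at 7 of their promoters in wt and at 10 in wt+TNFα, and H3K4me3 at 3 and 5. Pcdh9, Pcdh11x and Pcdh18 had H3K27me3 in wt+TNFα alone, with 25.3%, 25% and 56.6% of the promoters covered. Pcdh9 and Pcdh19 had H3K4me3 in wt+TNFα alone, with 6.02% and 7.39%. Pcdh11x and Pcdh19 lie on chromosome X, where the wt list held 247 H3K27me3 peaks and the wt+TNFα list 11578. Pcdh1, which lies on chromosome 18 as well, had no H3K27me3, and H3K4me3 covered 51% of its promoter bases without TNFα and 53.1% with it.

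All 15 regulators of the clusters examined, among them Ctcf and the cohesin subunit Rad21, which shape promoter choice in neurons, had an H3K4me3 peak in both conditions. H3K27me3 was called at 1 of them in wt, against 21.7% of all protein-coding genes, and at 5 in wt+TNFα, against 29.5%. The wt call was Dnmt3a, with 1.32% of its promoter bases covered. In wt+TNFα the covered share was 3.02% at Dnmt3a, 7.12% at Dnmt3b and 3.52% at Wiz. The other 2 were genes of chromosome X, Smc1a with 100% and Stag2 with 23%. The 2 lists differed far more on that chromosome than on the autosomes, with 247 and 11578 H3K27me3 peaks. All 7 genes for binding and signalling partners had H3K4me3 in both conditions, and 2 of them, Ret and Fyn, also had H3K27me3 in both. Of 21 other protein-coding genes between or within 250 kb of the clusters, 13 had H3K4me3 in wt and in wt+TNFα, against 50.5% and 51.2% of all. Among those without it, Gm42416, Gm37013 and Gm37388 are gene models that run from the Pcdha cluster into the Pcdhg cluster. H3K27me3 was called at 1 of the 21 in wt and at 3 in wt+TNFα, against 21.7% and 29.5% of all.

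For comparison, counts in 2 other clustered families are given without a test. Of 39 Hox genes, which encode positional transcription factors, 26 (66.7%) had H3K27me3 called in wt and 22 (56.4%) in wt+TNFα. Of 53 keratin genes, 33 (62.3%) and 31 (58.5%) had one. H3K27me3 covered 0% of the Hoxa interval in both conditions, 54% and 24.2% of Hoxb, 100% of Hoxc in both, and 100% and 94.4% of Hoxd in wt and wt+TNFα.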

How the data were processed

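Reads were mapped by the authors to GRCm38/mm10 (bwa-mem 2.2), freed of duplicates (SAMtools 1.11) and turned into peaks by MACS2 (2.1.0 per the methods) with the input as control, in its broad mode for H3K27me3 and its narrow mode for H3K4me3. The deposited lists give each peak's position, its fold enrichment, which is a ratio to the local background, and its q-value as −log10. The score column that the authors' peak caller wrote was not used. The names of 3 of the 4 lists, all but that of wt+TNFα H3K27me3, mention a spike-in that the methods do not describe. Of the deposited H3K27me3 peaks, 87.2% in wt and 80.5% in wt+TNFα had a listed −log10 q under 2. The study states that value as its threshold for calling. Whether it was applied to the q-value listed for a whole region is not known here, so these peaks cannot be said to fail it. The labels give a depth of 60 M reads for H3K27me3 and 40 M for H3K4me3 and input. By the study's reporting summary, more reads were obtained with TNFα than without for H3K4me3 and input, and about as many for H3K27me3. The inputs were not analysed here. An item of the regulator list is not reported here.

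Peaks were made 1-based and merged within a list. Promoters and exons came from GENCODE vM21, counted by symbol. The variable exon of a gene was its longest exon that did not overlap exons of 3 or more other members. Sequence features were read from the RefSeq copy of GRCm38. Fold enrichments were ranked only within a list. Where values of wt and wt+TNFα stand side by side, the lists may differ in depth and processing, and their difference was not tested. Python 3.11.15, numpy 2.4.6, pandas 2.3.3 and matplotlib 3.10.9 were used, and the steps were tested on simulated peaks. The members, gene lists and tests were chosen with earlier results of these data known. Named genes were those with H3K4me3 or with H3K27me3 in 1 condition, the C-type genes, the first and last gene of each cluster and the highest and lowest covered shares. The base composition, the CGCT count, the list of basic cell machinery genes and other members given with values were added after their values were seen. Alternatives were promoters of 500 or 2000 bp, 1 start per gene, an overlap of 200 bp, protein-coding transcripts, peaks above the median −log10 q or at 2 or more, and other interval ends. With 1 library per group, no precision can be given.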

Additional observations from a re-analysis of the deposited data

How the results depend on the processing

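Narrower (500 bp) or wider (2000 bp) promoters, 1 start per gene, an overlap of 200 bp and protein-coding transcripts alone left every count of members within 1.5 times its value, and 63 of 76 alternative counts stayed so. The strength of the peaks mattered more. With the stronger part of each list alone, above its median −log10 q, H3K27me3 was called at 4 members in wt+TNFα, at 0 in wt+TNFα alone, H3K4me3 at 0 in wt and 0 in wt+TNFα, and both marks at 0 in wt. H3K27me3 then covered 2.45% of Pcdha and 6.66% of Pcdhg in wt+TNFα, and H3K4me3 0% of Pcdhg in both conditions. With H3K27me3 peaks at a −log10 q of 2 or more, 1 member was called in wt (Pcdhac2) and 2 in wt+TNFα (Pcdhac2 and Pcdhga9), so that 1 was called in wt+TNFα alone, 0 in wt alone and 0 with both marks. The shares were 2.45% of Pcdha in wt+TNFα and 0% and 2.87% of Pcdhg in wt and wt+TNFα. In a setting chosen after seeing the data, the wt+TNFα H3K27me3 list was shortened to the covered autosomal length of the wt list, which left 7641 of its peaks, with −log10 q of at least 2.34, beside all wt peaks down to 0.302. Then 2 members were called in wt+TNFα, 0 in wt+TNFα alone and 6 in wt alone, with 2.45% of Pcdha and 2.87% of Pcdhg covered in wt+TNFα. The shares of all protein-coding genes were not counted at this setting. Only the wt+TNFα list was shortened here, so the member counts compare unequal thresholds and bear on no difference between the conditions. From first to last start with 1000 bp on each side, H3K27me3 covered 1.27% and 1.48% of Pcdha and 14.3% and 13.8% of Pcdhg, and H3K4me3 1.95% and 2.17% of Pcdhg, in wt and wt+TNFα. With 10000 bp added at each end these were 1.6% and 2.54%, 11.4% and 11.6%, and 1.56% and 2.02%. No paired analysis was possible because each group has 1 library. The cause of these differences was not tested.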
